A study of Mus musculus with 9 samples.

Results

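Kupffer cells, the resident macrophages of the liver, are recognised by a set of surface and secreted proteins, and 8 genes for such proteins were followed here: Vsig4, Clec4f, Cdh5, Cd5l, Folr2, Fcna, Il18bp and Abcc3. They were chosen by name as Kupffer cell identity genes, and each has a row among the 13708 genes of the deposited table. The data are bulk RNA-seq of macrophages sorted from fetal livers at E15.5, with 5 Mrc1Cre Xpr1fl/fl and 4 Xpr1fl/fl samples, each library made from 45 ng of total RNA. The comparison asks how these genes are expressed when Xpr1, the gene of a phosphate exporter, is deleted in macrophages. All samples, controls included, carried Xpr1 alleles in which loxP sites flank an early exon, on a C57BL/6JRj background. Mrc1Cre is a heterozygous insertion of an iCre and eYFP cassette into the Mrc1 gene, so Cre follows Mrc1 (CD206) and can also act in liver sinusoidal endothelial cells. The labels give the sorted cells as CD45+ F4/80hi CD11blow, while the methods state F4/80+ without a level, and Tim4hi as well as Tim4lo cells were included. Neither the labels nor the methods say whether a sample is 1 embryo, so p-values measure the spread between these samples, which may be partly technical.

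Kupffer cells line the liver sinusoids and remove particles, microbes and worn-out blood cells from passing blood. For this they carry complement receptors and lectins on their surface, and they release soluble proteins that bind microbes, lipids or cytokines. In the fetal liver, macrophages of this lineage also sit at the centre of erythroblastic islands, where they support red cell precursors and take up the expelled nuclei.

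All 8 genes passed the filter on low values, which kept 13594 genes that reached 10 normalized counts in 4 or more samples. In Mrc1Cre Xpr1fl/fl macrophages all 8 were lower (limma on log2(normalized count + 1), adjusted p under 0.05), and 0 were higher. Of all genes tested, 21.6% were lower and 21.5% higher by the same rule. With the samples scaled to their 75th percentile, 35.0% of the called genes were higher instead of 49.9%, and the 8 genes were still all lower. The 8 genes were picked with results of these libraries in view, so their direction is not independent evidence. In bulk samples, fewer cells of a type and less RNA per cell cannot be told apart.

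The size of the change ran from 1.24-fold to 36.6-fold. Vsig4 was 36.6-fold lower in the mean of normalized counts, Folr2 5.61-fold, Clec4f 3.99-fold and Il18bp 3.44-fold. The changes of Fcna (2.40-fold), Cd5l (1.85-fold), Cdh5 (1.71-fold) and Abcc3 (1.24-fold) were smaller. On the log2 scale, the 95% confidence intervals of neighbours in this order overlapped, except between Vsig4 and Folr2 and between Cdh5 and Abcc3. The median log2 fold change of the 8 genes was -1.53, beside a median of 0.00 over all genes tested.

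Each deposited column name begins with 1 of 3 dates, whose meaning is not stated. Mrc1Cre Xpr1fl/fl sample 5 and control samples 1 to 3 share the earliest date, control sample 4 has the middle one, and Mrc1Cre Xpr1fl/fl samples 1 to 4 have the latest. A fit that includes the date (the date fit) therefore rests, for the genotype, on Mrc1Cre Xpr1fl/fl sample 5 against control samples 1 to 3. In that fit 4 of the 8 genes were lower (Vsig4, Folr2, Clec4f and Cdh5) and 0 were higher, where 4.54% of all genes tested were lower and 4.24% higher. The other 4 genes kept a negative log2 fold change but did not pass the threshold.

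Macrophage genes were looked at first. Adgre1 encodes F4/80, a protein used in the sort. A like level in both genotypes may therefore follow from the sort and is no check of the label. Adgre1 had 46008 ± 4749 normalized counts in controls (SD, n = 4) and 46581 ± 1402 in Mrc1Cre Xpr1fl/fl samples (SD, n = 5). It did not pass the threshold (limma adjusted p = 0.816). Tyrobp, a signalling adaptor of myeloid cells, had 12832 ± 1152 and 11969 ± 433 normalized counts (limma adjusted p = 0.235), but it was called lower after either other scaling. Of 15 pan-macrophage genes, 2 were lower and 4 higher (1 and 1 in the date fit), and their median log2 fold change was 0.09. Lyz2, the gene of lysozyme, fell from 34247 ± 5681 to 15830.3 ± 2521 normalized counts (log2 fold change -1.11, limma adjusted p = 7.36e-05). Ptprc, which encodes CD45, a protein used in the sort, rose from 8497 ± 530.3 to 15402 ± 1794 (log2 fold change 0.85, limma adjusted p = 4.04e-05). Both kept their calls in the date fit. Csf1r had the most counts of them, and none of the 15 was listed at 0. The genotype check gave 1982 ± 205 normalized counts of Xpr1 in controls and 1162 ± 84.9 in Mrc1Cre Xpr1fl/fl samples. This was -0.77 on the log2 scale (limma adjusted p = 4.13e-05). Only an early exon lies between the loxP sites, so reads from the rest of a deleted allele can still be counted. The value is therefore not the extent of deletion. Mrc1, which carries the inserted cassette, changed by -1.72 on the log2 scale (limma adjusted p = 5.37e-06), and reads of the altered allele cannot be told apart from those of the intact one.

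The sequence just before each gene's start was searched for 6 short motifs of factors active in macrophages, in windows of 300 bases, from 250 before to 50 after the start of the Ensembl canonical transcript (GENCODE release 39, GRCm39). TGCTGA, the core letters bound by MAF factors, was found on either strand in 5 of the 8 windows, and in 17.9% of 21770 windows of protein-coding genes or 15.51% of the 12950 that belong to tested genes. The 5 genes are Vsig4, Clec4f, Cd5l, Folr2 and Fcna. Stretches of 80 bases that hold the match nearest the start are shown here because, of the motifs searched, this is the only one found in any of the 8 windows. Capitals mark TGCTGA or its reverse complement TCAGCA.
Vsig4: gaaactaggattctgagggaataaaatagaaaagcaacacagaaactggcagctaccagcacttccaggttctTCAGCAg
Clec4f: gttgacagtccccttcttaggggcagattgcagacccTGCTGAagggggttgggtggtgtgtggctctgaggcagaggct
Cd5l: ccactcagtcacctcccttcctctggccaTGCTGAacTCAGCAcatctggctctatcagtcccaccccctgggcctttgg
Folr2: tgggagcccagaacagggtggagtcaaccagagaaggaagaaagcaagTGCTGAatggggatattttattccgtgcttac
Fcna: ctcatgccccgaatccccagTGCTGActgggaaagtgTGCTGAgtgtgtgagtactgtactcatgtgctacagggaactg
All run 5′ to 3′ along the gene's own strand and lie in GRCm39, for Vsig4 chrX:95337015-95337094 (minus strand), for Clec4f chr6:83633255-83633334 (minus strand), for Cd5l chr3:87265105-87265184 (plus strand), for Folr2 chr7:101494526-101494605 (minus strand) and for Fcna chr2:25518034-25518113 (minus strand). The nearest match begins 23 bases after the start in Vsig4, and 128, 40, 2 and 34 bases before it in Clec4f, Cd5l, Folr2 and Fcna. Cd5l holds 2 matches in its window of 300 bases and Fcna holds 3. Cdh5, Il18bp and Abcc3 hold none of these letters in their windows. The other 5 motifs, on either strand, were in 0 of the 8 windows: GAGGAAGT (PU.1), CACGTG (E-box), GAAANNGAA (part of an interferon response element), TGTGGT (RUNX) and AGGTCA (nuclear receptors). They were in 3.07%, 7.81%, 8.78%, 15.3% and 15.1% of all windows. A match is a description of letters and not a binding site.

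**Figure D1:**
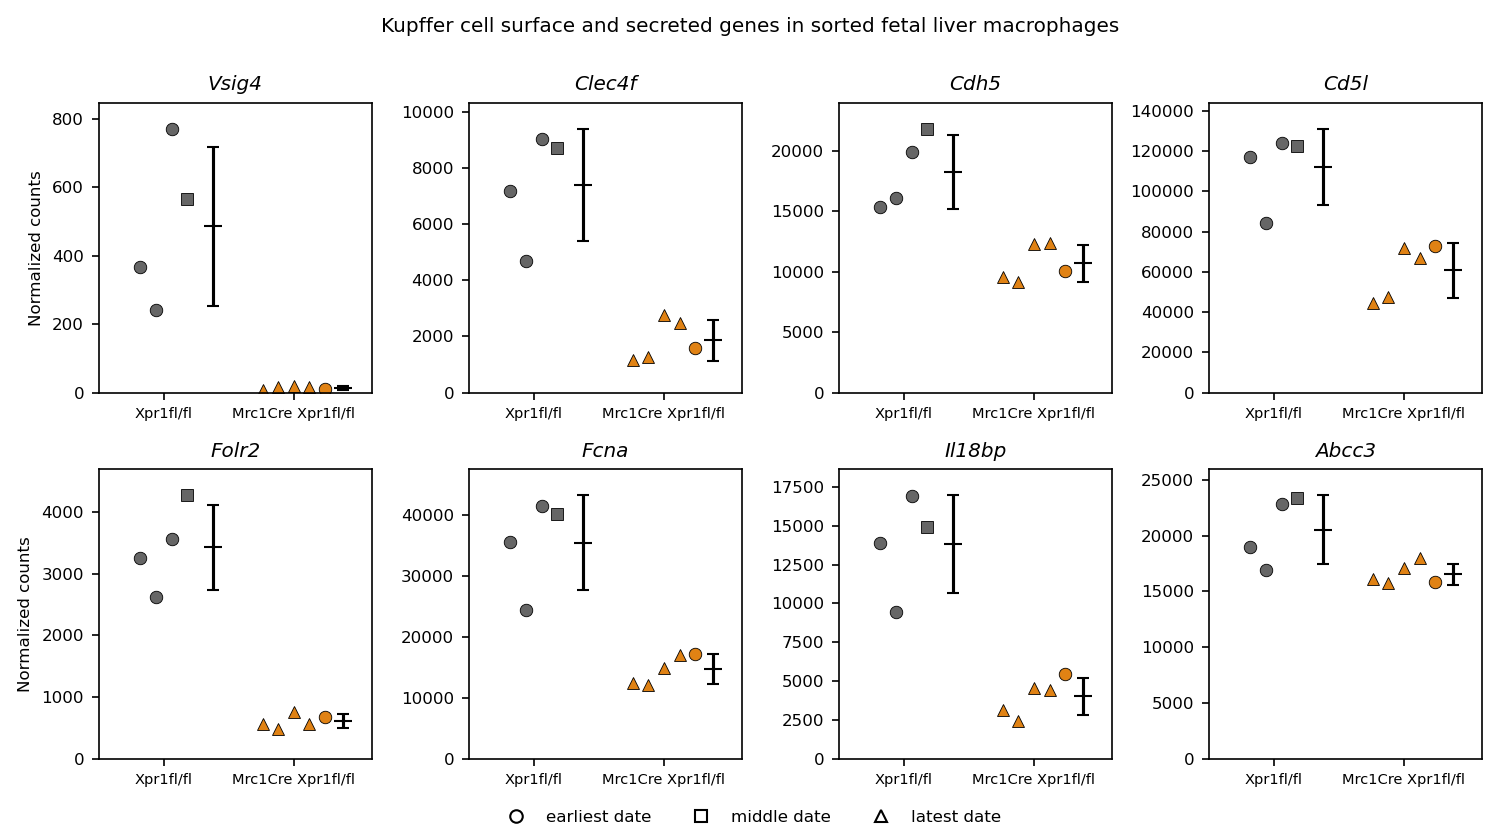
Normalized counts (y axis, from 0) of the 8 genes in each Xpr1fl/fl (grey) and Mrc1Cre Xpr1fl/fl (orange) sample, samples 1 to 4 or 1 to 5 from left to right. The symbol gives the date in the column name, and the bars are mean and SD. For every gene but Abcc3, all orange points lie below all grey ones.

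Among the surface receptors, Vsig4 showed the largest fold. It encodes CRIg, an immunoglobulin-type receptor for the complement fragments C3b and iC3b, with which Kupffer cells catch opsonised particles. The gene (ENSMUSG00000044206) lies on the minus strand of chromosome X of GRCm39, from 95290807 to 95337044. Control samples 1 to 4 had 367, 240.2, 769 and 566 normalized counts. Mrc1Cre Xpr1fl/fl samples 1 to 5 had 6.80, 15.8, 17.6, 16.0 and 10.1. The groups were far apart, and the controls spread over a wider relative range than those of any other gene of the 8. The log2 fold change was -5.03 (SE 0.35, limma adjusted p = 6.21e-06), and the mean of the Mrc1Cre Xpr1fl/fl samples was 2.73% of the control mean. In the date fit it was -5.20 (limma adjusted p = 0.00221). Because the scale adds 1 to every value, it understates the change of a gene with so few counts.

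Clec4f (ENSMUSG00000014542, chromosome 6, minus strand, 83621524 to 83633169) encodes a C-type lectin that binds galactose-type sugars and in mice marks Kupffer cells. Controls 1 to 4 had 7175, 4687, 9039 and 8735 normalized counts. Mrc1Cre Xpr1fl/fl samples 1 to 5 had 1177, 1265, 2764, 2497 and 1584. The groups did not overlap, and within each the samples differed by more than those of most of the 8 genes. Clec4f changed by -2.04 on the log2 scale (SE 0.27, limma adjusted p = 0.000184). In the date fit it was -2.09 (limma adjusted p = 0.0292).

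Folr2 (ENSMUSG00000032725, chromosome 7, minus strand, 101489195 to 101506401) encodes folate receptor beta, a lipid-anchored surface protein of tissue macrophages. Its counts in controls 1 to 4 were 3249, 2613, 3563 and 4265. In Mrc1Cre Xpr1fl/fl samples 1 to 5 they were 567, 485, 764, 556 and 681. Both groups were narrow, and the gap between them was wide. Folr2 changed by -2.48 on the log2 scale (SE 0.15), with the smallest adjusted p of the 8 (3.65e-06, limma). In the date fit the log2 fold change was -2.19 (limma adjusted p = 0.00123). Folr1, the gene of folate receptor alpha 1136 bp away, had 10.1 normalized counts in controls and 10.9 in Mrc1Cre Xpr1fl/fl samples (limma adjusted p = 0.929).

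Cdh5 (ENSMUSG00000031871, chromosome 8, plus strand, 104828231 to 104871143) encodes VE-cadherin, the adhesion protein of endothelial junctions that Kupffer cells also express. Controls 1 to 4 had 15352, 16085, 19876 and 21805 normalized counts. Mrc1Cre Xpr1fl/fl samples 1 to 5 had 9577, 9134, 12257, 12390.5 and 10055. The highest Mrc1Cre Xpr1fl/fl samples stayed below the lowest control. Cdh5 changed by -0.77 on the log2 scale (SE 0.12, limma adjusted p = 0.00055) and in the date fit -0.76 (limma adjusted p = 0.0392). When only the samples of the earliest date were compared, the adjusted p from limma was 0.0599.

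Abcc3 (ENSMUSG00000020865, chromosome 11, minus strand, 94233874 to 94283823) encodes MRP3, a membrane pump for organic anions such as conjugated bile acids. Its counts in controls 1 to 4 were 18949, 16906, 22802 and 23334. In Mrc1Cre Xpr1fl/fl samples 1 to 5 they were 16117, 15768, 17050.3, 17964 and 15854. Control sample 2 lay within the range of the other genotype, so Abcc3 was the gene of the 8 whose groups overlapped. On the log2 scale Abcc3 changed by -0.30 (SE 0.09, limma adjusted p = 0.0218). It did not pass the threshold without control sample 3 (limma adjusted p = 0.0709), without control sample 4 (0.063) or in the date fit (log2 fold change -0.29, limma adjusted p = 0.232).

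Among the secreted proteins, Cd5l was the most abundant. It encodes a scavenger-receptor-type protein also called AIM, which travels in blood bound to IgM. The gene (ENSMUSG00000015854) lies on the plus strand of chromosome 3, from 87265182 to 87278380. Controls 1 to 4 had 117277, 84219.9, 124302 and 122811 normalized counts. Mrc1Cre Xpr1fl/fl samples 1 to 5 had 44616.5, 47699.7, 71939, 66680.4 and 72987. The groups did not overlap, but Mrc1Cre Xpr1fl/fl sample 5 came near control sample 2, with which it shares its date. On the log2 scale Cd5l changed by -0.90 (SE 0.17, limma adjusted p = 0.0017). In the date fit it was -0.55 (limma adjusted p = 0.25).

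Fcna (ENSMUSG00000026938, chromosome 2, minus strand, 25514671 to 25519013) encodes ficolin A, a soluble lectin that recognises acetylated sugars and starts the lectin pathway of complement. Controls 1 to 4 had 35637, 24481, 41568.5 and 40299 normalized counts. Mrc1Cre Xpr1fl/fl samples 1 to 5 had 12462, 12198, 14867, 17084 and 17276. All Mrc1Cre Xpr1fl/fl samples lay below control sample 2, the lowest of its group. The change of Fcna was -1.25 on the log2 scale (SE 0.16, limma adjusted p = 0.00014), and in the date fit -0.94 (limma adjusted p = 0.0527).

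Il18bp (ENSMUSG00000070427, chromosome 7, minus strand, 101638490 to 101668206) encodes a soluble decoy that binds IL-18 and keeps it from its receptor. Controls 1 to 4 had 13914.5, 9462, 16902 and 14921 normalized counts. Mrc1Cre Xpr1fl/fl samples 1 to 5 had 3155, 2443, 4572, 4456 and 5427. The groups did not overlap, and Mrc1Cre Xpr1fl/fl sample 5 was the highest of its genotype. The log2 fold change was -1.81 (SE 0.23, limma adjusted p = 0.000125), and in the date fit -1.27 (limma adjusted p = 0.0563). Il18bp overlaps Numa1 on the opposite strand, the gene of a mitotic spindle protein, which moved the other way (log2 fold change 0.45, limma adjusted p = 0.00371). Libraries came from a stranded kit, but the strand setting of the counting is not given in the sources used here.

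For 7 of the 8 genes, every Mrc1Cre Xpr1fl/fl sample lay below every control, where 17.5% of all genes tested did so. For each of these 7, the two-sided exact permutation test of the mean log2 values gave p = 0.0159, the smallest that the 126 ways of dividing 9 samples into 5 and 4 allow. Abcc3 had an exact permutation p of 0.0476. These p-values use no other genes and are not adjusted.

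**Figure D2:**
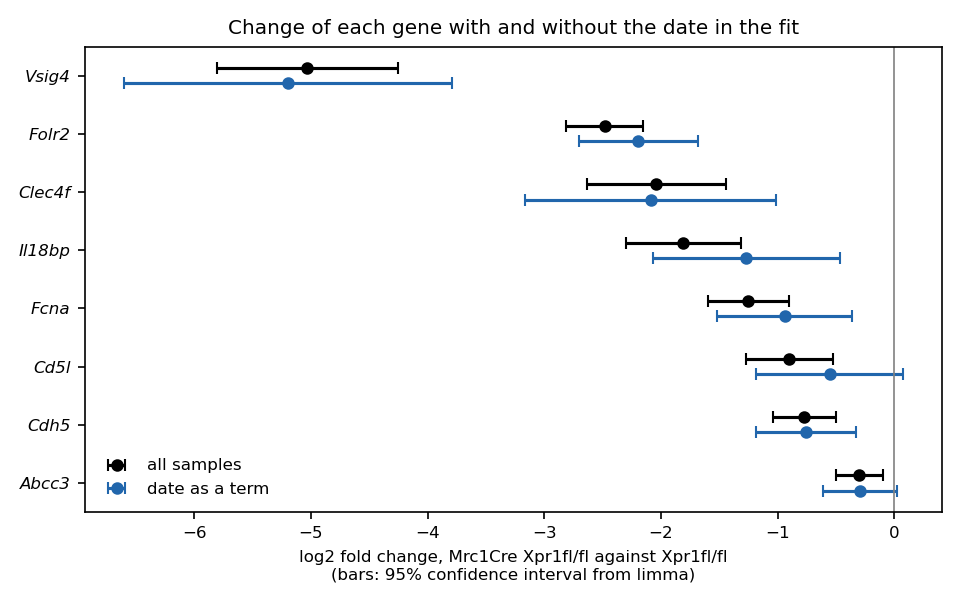
Log2 fold change of each gene (x axis) with its 95% confidence interval from limma, over all samples (black) and in the date fit (blue). Vsig4 lies at -5.03 and Abcc3 at -0.30. The blue intervals are wider, and those of Cd5l and Abcc3 cross 0.

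Levels between genes were compared as normalized counts per kb of all annotated exons. Cd5l had 54923 ± 9239 per kb in controls (SD, n = 4), rank 17 among the 13698 genes with an annotated length, and 29767 ± 6664 in Mrc1Cre Xpr1fl/fl samples (SD, n = 5), rank 21. Fcna followed with 19808 ± 4338 per kb and rank 40 in controls, and 8246 ± 1355 and rank 106 in Mrc1Cre Xpr1fl/fl samples. Both therefore stayed among the most abundant transcripts of the sorted cells despite their fall. At the other end, Vsig4 went from 327 ± 156 per kb and rank 3100 to 8.93 ± 3.09 per kb and rank 11676.

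The 5 genes between them, in descending order of the control level, were Cdh5 (4172 ± 702 per kb), Abcc3 (3433 ± 518), Il18bp (2778 ± 634), Folr2 (2148 ± 431) and Clec4f (2003 ± 538). Each one's range over the controls overlapped that of the next. Within single controls, Cdh5 was above Abcc3, Abcc3 above Il18bp and Il18bp above Folr2 in 4 of 4, and Folr2 was above Clec4f in 3 of 4. In Mrc1Cre Xpr1fl/fl samples Abcc3 had 2772 ± 157 per kb, Cdh5 2438 ± 350.1, Il18bp 807 ± 241, Clec4f 502 ± 197 and Folr2 383 ± 69.5. The last pair of means lay within the spread of Clec4f, and the first pair within the spread of Cdh5, so the means alone give no order within either pair. Unlike in the controls, these pairs were not compared within single samples. The place of Il18bp depends on the length used, since its annotated exons add up to 4967 bases and its canonical transcript to 1678. Per kb of the canonical transcript, a length chosen after seeing the data, Il18bp had 8224 normalized counts in controls and stood above Cdh5 (4546).

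**Figure D3:**
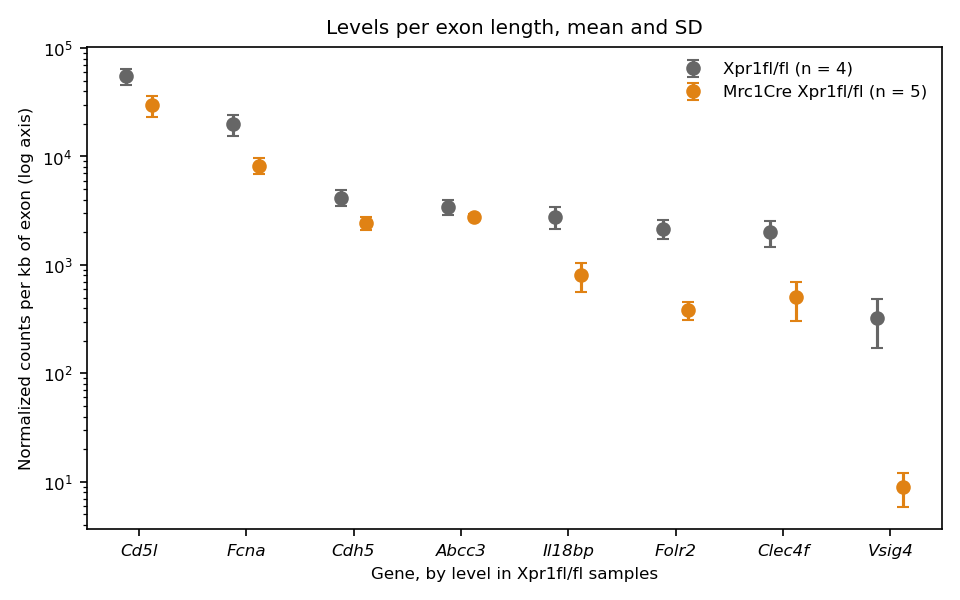
Normalized counts per kb of exon (y axis, log scale) for each gene in Xpr1fl/fl (grey, n = 4) and Mrc1Cre Xpr1fl/fl (orange, n = 5) samples, mean and SD. Cd5l, at 54923 per kb in controls, stays the highest in both genotypes and Vsig4 the lowest, at 327 and 8.93 per kb.

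The 8 genes also varied together among samples of one genotype. When log2 values were centred on the mean of their genotype, all 28 pairs of genes had a positive Pearson correlation over the 9 samples, from 0.44 (Vsig4 and Il18bp) to 0.93 (Cd5l and Il18bp), with a median of 0.73. Taken within the 5 Mrc1Cre Xpr1fl/fl samples, the 28 values ran from 0.07 (Vsig4 and Il18bp) to 0.97, with a median of 0.64, and within the 4 controls from 0.57 to 0.998, with a median of 0.90. The controls gave the higher value for 24 of the 28 pairs. With 4 controls these values can rest on 1 sample, and control sample 2 was below its group mean for all 8 genes. The lowest value in Mrc1Cre Xpr1fl/fl samples involves Vsig4, which had only 6.80 to 17.6 normalized counts there. No difference between the genotypes in how the genes vary together is therefore read. The correlation of each gene with the mean of the other 7 lay between 0.71 and 0.90. The other genes tested had a median correlation of 0.04 with the mean of the 8, and 4.34% of them exceeded the lowest of those values. All points share their libraries and normalization, and the values are a description.

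Control sample 2 was below its group mean for all 8 genes, by 0.46 on average on the log2 scale, while control samples 3 and 4 were above it for all 8. Mrc1Cre Xpr1fl/fl sample 1 was below its group mean for all 8 genes and sample 3 above it for all 8. Sample 5 of that genotype was mixed, above the mean for 4 genes, with the highest counts of its group for Cd5l, Fcna and Il18bp. It lay below its group mean for Vsig4, Clec4f, Cdh5 and Abcc3. The surface receptor Folr2 was also above its mean there, so this 1 sample did not divide the genes by secreted and surface protein. Its summed erythroid counts were 333435, where the others of its genotype had 112086 to 177993. The reason for its mixed values was not tested.

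**Figure D4:**
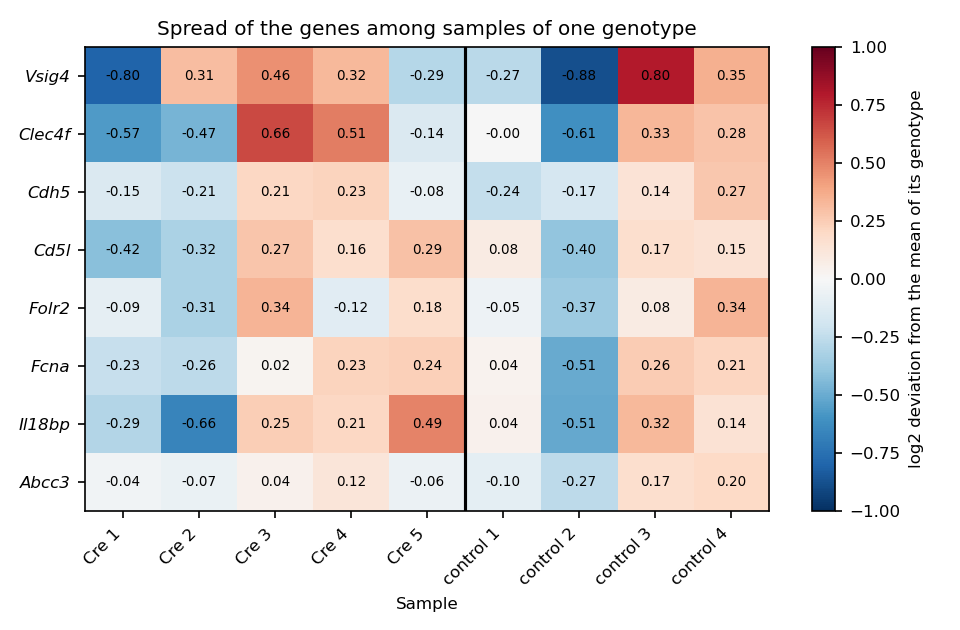
Deviation of each gene (rows) in each sample (columns) from the mean of its genotype, in log2 units, with the value printed in each cell; "Cre" columns are Mrc1Cre Xpr1fl/fl samples and "control" columns Xpr1fl/fl samples. Control sample 2 is below 0 for every gene, and Cre sample 5 is above 0 for Cd5l, Folr2, Fcna and Il18bp.

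Several marker lists of other liver cells moved with the genotype, and their values are given because the genes could be read beside them. All 23 erythroid genes measured were lower (8 in the date fit), with a median log2 fold change of -1.79 (-0.96 in the date fit). Their summed normalized counts in controls 1 to 4 were 597265, 444171, 695406 and 682128. In Mrc1Cre Xpr1fl/fl samples 1 to 5 they were 144806, 112086, 177993, 165722 and 333435. The most abundant was Hba-a1, and no gene of the list was at 0. Il18bp ranked the samples of each genotype in the same order as this sum, a match noticed after the values were seen. Its correlation with the log2 sum, centred by genotype, was 0.89 over the 9 samples, beside 0.78 for Cd5l, 0.76 for Fcna and 0.70 for Folr2. The values were lower for Clec4f (0.40), Cdh5 (0.33), Abcc3 (0.33) and Vsig4 (0.17). The part of erythroid RNA in these results was not tested.

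For Vsig4 the closest of the 7 marker sums was that of the pan-macrophage genes, at a correlation of 0.90, and for Fcna that of the 30 other Kupffer cell genes, at 0.92. The pan-macrophage sums overlapped between the genotypes, with 342713 to 392802 normalized counts in controls and 370430 to 400127 in Mrc1Cre Xpr1fl/fl samples. Control sample 2, low for all 8 genes, also had the lowest sum of each of these lists among the controls. Its erythroid, endothelial and hepatocyte sums were the lowest of the controls too, as was its total of normalized counts (26942921). Its monocyte sum and its neutrophil and progenitor sum were not. The reason for the low values of this sample was not tested.

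Of 23 endothelial genes, 19 were lower and 0 higher, and 3 were lower in the date fit. Their summed counts were 12358 to 17794 in controls and 7284 to 9433 in Mrc1Cre Xpr1fl/fl samples, with none of the genes at 0. Per kb in controls, Cdh5 (4172) was above Stab2 (755), a scavenger receptor of sinusoidal endothelium and the most abundant gene of the list, and above Pecam1 (198), the next. Tek and Tie1, receptors of endothelium, had 106 and 176 normalized counts in controls, not per kb. In that unit Stab2 had 8125 and Cdh5 18279. Centred by genotype, Cdh5 had a correlation of 0.57 with the log2 endothelial sum. Il18bp (0.82), Fcna (0.77), Cd5l (0.76), Clec4f (0.70) and Vsig4 (0.61) had higher values, Abcc3 a like one (0.57) and Folr2 a lower one (0.45). The part of endothelial RNA in the change of Cdh5 or of the other genes was not tested.

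All 15 hepatocyte genes were lower (2 in the date fit), with summed counts of 61538 to 107067 in controls and 36378 to 47048 in Mrc1Cre Xpr1fl/fl samples. The most abundant was Trf, the gene of transferrin, and none was at 0. Of 13 neutrophil and progenitor genes 7 were lower, 7 in the date fit, and none was higher. S100a9, their most abundant gene, varied too widely to pass (limma adjusted p = 0.169), and the sums ran from 10628 to 56811 in controls and from 5977 to 18986 in Mrc1Cre Xpr1fl/fl samples. Of 13 monocyte genes 5 were lower and 3 higher, and in the date fit 1 and 0. Their sums overlapped, with 12766 to 16793 in controls and 15526 to 19776 in Mrc1Cre Xpr1fl/fl samples, and Plac8, the most abundant, was higher (log2 fold change 0.91, limma adjusted p = 0.000292) but did not pass in the date fit (0.65, limma adjusted p = 0.0749). The part of these cells in the change of the 8 genes was not tested.

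The 8 genes were next set beside other Kupffer cell genes. Of 30 such genes, 17 were lower and 6 higher, with a median log2 fold change of -0.39, and in the date fit 10 were lower and 3 higher. Mrc1, which carries the inserted cassette, is in this list and was among those lower in both fits. The largest fall was that of Kcna2, a potassium channel, from 3167 ± 1216 to 204 ± 105 normalized counts (log2 fold change -4.08, limma adjusted p = 4.8e-05). Marco, a scavenger receptor for bacteria, changed by -1.73 on the log2 scale (limma adjusted p = 0.000189), and by -0.92 without passing in the date fit (limma adjusted p = 0.0614). Hmox1, which breaks down heme and was the most abundant of the list, changed less (-0.42, limma adjusted p = 0.0359) and was not called after quantile normalization or in the date fit. Itga9, an integrin subunit, rose by 0.65 (limma adjusted p = 0.000193). The 6 higher were a share near that of all genes tested (21.5%), so nothing is read from them about Kupffer cell genes. After 75th percentile scaling, 21 of the 30 were lower and 4 higher.

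**Figure D5:**
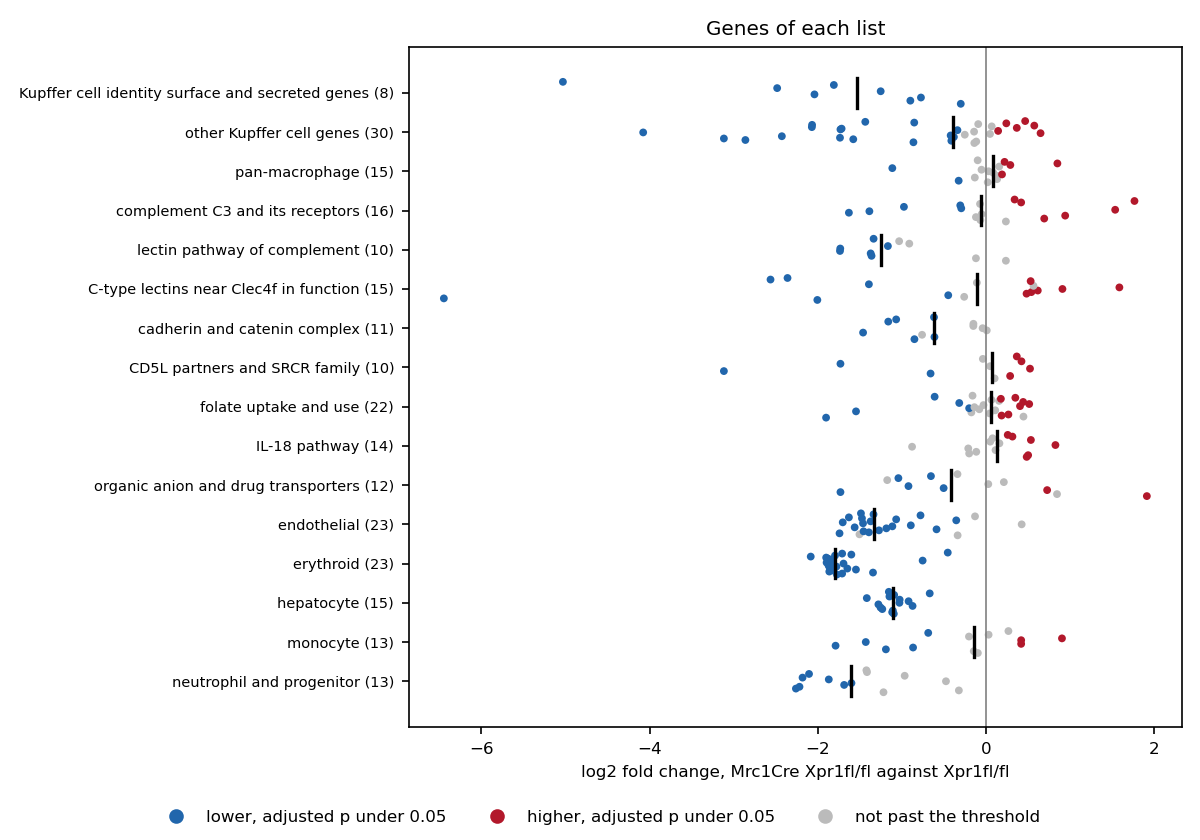
Log2 fold change (x axis) of each gene of each list, 1 point a gene, with the number tested in brackets. Blue and red points are genes lower and higher at a limma adjusted p under 0.05, grey points did not pass, and the black line is the list's median. The 8 Kupffer cell surface and secreted genes have a median of -1.53 and the pan-macrophage genes one of 0.09.

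Vsig4 works with complement fragment C3b, so C3, its regulators and other C3 receptors were listed. Of 16 measured, 5 were lower and 6 higher, and 2 and 5 in the date fit. Itgax, Itgam, Itgb2 and C3ar1, which encode receptors for C3 products or their subunits, were among those higher, unlike Vsig4. Of these, Itgam had overlapping groups and did not pass in the date fit (log2 fold change 0.31, limma adjusted p = 0.298). Itgax, a subunit of complement receptor CR4, went from 166 ± 33.5 to 564 ± 95.8 normalized counts (log2 fold change 1.77, limma adjusted p = 2.37e-05). Itgb2, the subunit it shares with CR3, rose by 0.34 (limma adjusted p = 0.00686). Cd55, which protects cells from complement, fell by 1.63 (limma adjusted p = 3.52e-05), and Cfp, the gene of properdin, by 0.30 (limma adjusted p = 0.0331), though not in the date fit. C3 itself had 3134 normalized counts in controls and 2957 in Mrc1Cre Xpr1fl/fl samples (limma adjusted p = 0.742).

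Fcna belongs to the lectin pathway, of which 10 other genes were measured. Of these 6 were lower and 0 higher (4 lower in the date fit), with a median log2 fold change of -1.25. Colec12, a collectin receptor, went from 4797 ± 1144 to 1427 ± 234 normalized counts (log2 fold change -1.73, limma adjusted p = 2.16e-05). Fcnb, the gene of ficolin B, had a like change of -1.73 from a lower level, 449 to 117 normalized counts (limma adjusted p = 0.00781), but its groups overlapped and it did not pass in the date fit (-1.48, limma adjusted p = 0.0554). Per kb in controls, Colec12 (467) and C2 (447) led the list, far below Fcna (19808). C2 did not pass (log2 fold change 0.24, limma adjusted p = 0.0879). Masp1, a protease that ficolins activate, had 148 and 67.0 normalized counts (log2 fold change -1.16, limma adjusted p = 0.000714) and did not pass in the date fit (limma adjusted p = 0.13).

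The C-type lectins around Clec4f went both ways, with 6 of 15 lower and 6 higher, and 1 lower and 5 higher in the date fit. Clec4d, a receptor for mycobacterial lipid, had the largest rise (log2 fold change 1.59, limma adjusted p = 1.15e-05). Clec4a1 rose by 0.48 (limma adjusted p = 0.000114), and Clec4n, which encodes dectin-2 and was the most abundant per kb, did not pass (-0.11, limma adjusted p = 0.495). Cd209f had 137 to 788 normalized counts in controls and 0 to 7.92 in Mrc1Cre Xpr1fl/fl samples, and its fitted change of -6.45 depends on the pseudocount (limma adjusted p = 4.96e-05). Cd207, which encodes langerin and lies 15021 bp from Clec4f, fell by 1.73 (limma adjusted p = 4.1e-05). Clec4f itself thus fell beside lectin genes that rose.

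Of the 11 measured cadherin and catenin genes, partners and relatives of Cdh5, 6 were lower and 0 higher, and in the date fit 1 was lower. Their median was -0.62. After 75th percentile scaling 9 were lower. The catenins that bind cadherin tails differed less than Cdh5 did, with log2 fold changes of -0.04 for Ctnnb1 (limma adjusted p = 0.557) and -0.15 for Ctnnd1 (0.0913), and Ctnnd1 was called lower after either other scaling. Cdh2, the gene of N-cadherin, fell by 1.46 from a low level of 81.8 normalized counts in controls (limma adjusted p = 0.00047), and did not pass in the date fit (-1.22, limma adjusted p = 0.0841).

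Cd5l was set beside 10 partners, targets and relatives, of which 3 were lower and 4 higher, and in the date fit 2 and 1. Cd163, the hemoglobin receptor and a relative of CD5L, went from 382 ± 145 to 41.2 ± 6.16 normalized counts (log2 fold change -3.12, limma adjusted p = 8.34e-06). Cd36, through which macrophages take up CD5L, rose by 0.53 (limma adjusted p = 0.000229), a call lost in the date fit (0.38, limma adjusted p = 0.073). Nr1h3, the gene of the nuclear receptor LXRα that is known to drive Cd5l, rose by 0.37 (limma adjusted p = 0.000219), and Apoe, another LXR target, fell by 0.66 (limma adjusted p = 0.0012). Cd5l and Nr1h3 therefore moved in opposite directions between the genotypes. In the date fit Nr1h3 stayed higher (0.44, limma adjusted p = 0.0154), but the fall of Cd5l did not pass (-0.55, limma adjusted p = 0.25).

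Around Folr2, 22 genes of folate uptake and use were measured, of which 5 fell and 7 rose, around a median of 0.06. After 75th percentile scaling these numbers were 6 and 4, and in the date fit 1 and 1. The folate transporter genes went apart, Slc46a1 falling by 0.61 (limma adjusted p = 0.00169) and Slc19a1 rising by 0.35 (limma adjusted p = 0.00574), but neither passed in the date fit. Aldh1l1, a folate enzyme, had the largest fall (-1.90, limma adjusted p = 4.51e-05). The abundant enzymes changed little, with 0.18 for Shmt2 (limma adjusted p = 0.0165, not called after either other scaling) and -0.20 for Mthfd1 (limma adjusted p = 0.0202), and neither passed in the date fit. The fall of Folr2 was larger than that of every other measured gene of this list.

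In the IL-18 pathway 6 of 14 measured genes were higher and 0 lower, and in the date fit 3 and 0. After 75th percentile scaling 4 were lower and 5 higher, and after quantile normalization 3 and 6. Il18 had 2852 ± 285 normalized counts in controls and 2466 ± 211 in Mrc1Cre Xpr1fl/fl samples (log2 fold change -0.21, limma adjusted p = 0.0533) and was called lower after either other scaling. Il1b, another cytokine cut by caspase-1, had the largest rise (0.83, limma adjusted p = 0.00365), but its groups overlapped and it did not pass in the date fit (0.58, limma adjusted p = 0.26). Casp1 itself rose by 0.49 (limma adjusted p = 4.9e-05) and was called higher under each scaling and in the date fit.

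Among 12 organic anion and drug transporters beside Abcc3, 5 were lower and 2 higher, and in the date fit 1 and 1. Their median was -0.42. Abcc1, a close relative, rose from 2016 ± 239.7 to 3333 ± 249 normalized counts (log2 fold change 0.73, limma adjusted p = 8.77e-05). Abcb4, a phospholipid floppase, fell by 1.73 (limma adjusted p = 0.000114) and Abcg2 by 0.65 (limma adjusted p = 0.000377), and of these Abcb4 did not pass in the date fit (-1.18, limma adjusted p = 0.052). Per kb in controls, Abcc3 (3433) was above Abcb4 (213) and Abcg2 (182), the most abundant genes of this list.

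Folr2 and Il18bp both lie on chromosome 7, 132089 bp apart, and both were lower. Beside the 8 themselves, 52 tested genes lay within 200 kb of any of them, of which 13 were lower and 12 higher, where 21.6% and 21.5% of all genes tested were. Of the 3 neighbours of Vsig4, 1 was higher and 0 were lower.

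Among the genes whose levels followed the mean of the 8 most closely over the 9 samples were, by Pearson correlation of log2 values, Gpr146 (0.996), Icos (0.992), Aldh1l1 (0.992) and Gramd1c (0.991). This likeness includes the difference between the genotypes, and 878 of the 11385 genes that average 50 or more normalized counts exceeded 0.9. Gpr146, which encodes an orphan receptor, had 1192 normalized counts in controls and 716 in Mrc1Cre Xpr1fl/fl samples. Icos encodes a costimulatory receptor best known from T cells, with 1462 and 588 normalized counts.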

How the data were processed

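Bulk RNA-seq of 5 Mrc1Cre Xpr1fl/fl and 4 Xpr1fl/fl samples was used. The authors checked reads with FastQC, quantified them with salmon on a GRCm39 index, imported them with tximport and ran DESeq2 with a false discovery rate of 0.05. What they deposited is a signal without negative values, counts per gene divided by the authors' normalization factors. Totals per sample (26942921 to 28309443) reflect that normalization, so depth is unknown. All columns matched samples by name (0 did not). Symbols and coordinates came from GENCODE release 39 (13698 of 13708 genes).

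Genotypes were compared with limma 3.58.1 in R 4.3.3 (lmFit, eBayes with trend) on values transformed as log2(normalized count + 1). Genes had to reach 10 normalized counts in 4 or more samples, with Benjamini-Hochberg adjustment over 13594 genes and a threshold of 0.05. Changes on this scale understate those of low genes. On simulated data with 200 changed genes, 191 were recovered and 10 of 13528 tested genes were called falsely. Whether these rates hold for the measured samples, in which date and genotype largely go together, was not tested. Two-sided exact permutation tests were used for single genes (scipy 1.17.1), doubling the smaller tail. Plots were made in Python 3.11.15 with matplotlib 3.10.9.

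The 8 genes and the 15 other lists were chosen with earlier results of these data known. Named were the 8 genes, Xpr1, Mrc1, in each list the 2 most abundant genes per kb and those of largest rise and fall, and the 5 genes most like the mean of the 8. Other genes were named for their role after their values were seen. Alternatives were pseudocounts of 0.5 and 10, no filter, a filter at 50, 75th percentile scaling, quantile normalization, limma without trend, robust or with array weights, a replicate block, the date as a term, the earliest date alone, and leaving out each sample; a second length per gene was added after seeing the data. The study's single-cell, cytometry and qPCR data were not used here, and a few genes that the rule names are not reported here.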

Additional observations from a re-analysis of the deposited data

Results flagged for a closer look

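In 16 of 158 groups of samples, over the genes named and the sums of the marker lists, 1 sample stood apart from the others of its genotype (Dixon's criterion at the 95% level; about 1 in 20, or 7.9, by chance). None of the 16 groups of the 8 Kupffer cell surface and secreted genes was among them. Mrc1Cre Xpr1fl/fl sample 5, the one that shares its date with controls, was high for Hba-a1 (85791 normalized counts; the others of its genotype 25798 to 43152), Rhd (884; 336 to 478), Hp (339; 105 to 155), S100a9 (4995; 907 to 1787), Ngp (4307; 611 to 1325), Clec4a1 (11784; 10344 to 10606) and the neutrophil and progenitor sum (18986; 5977 to 9400.0). The same sample was low for Itga9 (15881, where the others had 18367 to 19362).

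Control sample 2, which was below its group mean for all 8 genes, was low for Cfp (23759; other controls 30369 to 30915), Clec4n (6097; 8528 to 8634), Trf (27161; 36807 to 38738) and the sum of the other Kupffer cell genes (654672; 820055 to 848432). Control sample 3 was high for Ifngr1 (8881; 7853 to 7923) and control sample 4 for Afp (23242; 11650.5 to 12321). Mrc1Cre Xpr1fl/fl sample 2 was low for Clec4d (188; 245 to 264) and high for the monocyte sum (19776; 15526 to 16479.9). How far these samples bear on the 8 genes is shown by leaving each out.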

How the results depend on the processing

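The 8 genes were each fitted under 21 alternatives, 168 fits in all. In 157 of them the gene stayed lower past the threshold, in 11 it stayed lower without passing, and in 0 did it turn. With the date in the fit, 4 of the 8 passed: Cd5l (-0.55), Fcna (-0.94), Il18bp (-1.27) and Abcc3 (-0.29) did not. With the earliest date alone, which leaves 1 Mrc1Cre Xpr1fl/fl sample assumed to vary like the controls, 3 passed (Vsig4, Clec4f and Folr2), and Cdh5 was at -0.76 with an adjusted p from limma of 0.0599. The cause of these losses was not tested, and both fits rest on fewer comparable samples. When 1 sample at a time was left out, log2 fold changes ranged as follows: Vsig4 -5.32 to -4.76, Clec4f -2.24 to -1.90, Cdh5 -0.85 to -0.68, Cd5l -1.03 to -0.79, Folr2 -2.60 to -2.37, Fcna -1.42 to -1.16, Il18bp -1.98 to -1.64, Abcc3 -0.39 to -0.23. Abcc3 alone lost its call, without control sample 3 (-0.24) or 4 (-0.23). A pseudocount of 10 moved Vsig4 to -4.31.

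Over all genes tested, 617 were lower and 577 higher once the date was included, and 306 and 149 with the earliest date alone, against 2939 and 2926 otherwise; leaving out 1 sample gave 2324 to 3031 lower and 2491 to 3050 higher. In the date fit the numbers lower were 10 for other Kupffer cell genes, 8 erythroid, 7 neutrophil and progenitor, 4 lectin pathway, 3 endothelial, 2 each for hepatocyte, C3 and CD5L partner genes, 1 each for pan-macrophage, C-type lectin, cadherin, folate, transporter and monocyte genes, and 0 for IL-18 genes. The numbers higher were 5 each for C3 and C-type lectin genes, 3 each for other Kupffer cell and IL-18 genes, 1 each for pan-macrophage, CD5L partner, folate and transporter genes, and 0 for the other lists, monocyte genes included.

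The replicate numbers do not pair the samples: same-numbered samples had correlations of their deviations between -0.03 and 0.15. A fit with a replicate block called all 8 genes lower, and 3080 genes lower and 3146 higher in all. The depth of the libraries is unknown and limits what can be said of genes as low as Vsig4 in Mrc1Cre Xpr1fl/fl samples.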
